A study of Mus musculus with 32 samples.

Results

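Loss of Prdm16 in mouse MLL-AF9 leukaemia cells was examined by comparing 3 RNA-seq libraries of Prdm16 knockout cells carrying an empty vector (KO+EV) with 3 libraries of wild-type cells carrying the same empty vector (WT+EV). These 6 libraries, of 32 in the series, were selected by their labels in the gene count table of the MLL-AF9 cells, and every gene in that table was considered. Both groups were leukaemia cells driven by the MLL-AF9 fusion, sorted directly from moribund mice without culture, and both carried the empty vector. The labels named 1 group wild type for PRDM16 and the other knockout. They did not state how the gene was deleted, the age or strain of the mice, or whether the replicates came from separate transductions, although the design text called the replicates independent. The p-values therefore measure the spread between replicate libraries, pooled over these groups and the added-isoform groups described below. That spread may be partly technical. The rest of the series held 6 MLL-AF9 libraries from the same knockout with a PRDM16 isoform added (3 labelled f, 3 labelled s) and libraries of sorted haematopoietic stem cells. The added-isoform libraries were used to estimate the spread between replicates and, at the end, for their levels.

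PRDM16 is a zinc-finger transcriptional regulator of the PR-domain family. It is needed to maintain blood stem cells and directs brown fat formation, and its gene is rearranged in some human myeloid leukaemias. It is made as a full-length protein with the PR domain and as a short protein without it. MLL-AF9 is a fusion of the methyltransferase MLL with a partner from the elongation machinery. It holds genes of the Hoxa cluster and Meis1 active in myeloid progenitors, and the resulting leukaemia resembles granulocyte and monocyte precursors. Granulocyte precursors make their granule proteins in waves: primary granule proteases first, at the promyelocyte stage, then secondary and tertiary granule proteins, then the cytosolic S100 proteins and stefins of late cells.

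The 6 libraries held between 16353584 and 21023042 counts over 23284 genes, of which 12958 passed the filter on low counts and were tested. Levels below are in CPM, a gene's count scaled to the size of its library with TMM factors, given in the order of replicates 1, 2 and 3, and differences are log2 of KO+EV over WT+EV with a standard error (SE). A gene is called at an adjusted p under 0.05 in edgeR's quasi-likelihood test. No pair of the 6 libraries was a repeat of the other, since the lowest chi-square per degree of freedom over the 15 pairs was 14.3. KO+EV 3 stood apart from the other 5 libraries. Its normalisation factor was 0.942 against 1.01 to 1.05 in the others, and its 10 largest genes took 7.40% of its counts against 3.27% to 3.6%. Of the genes tested, 365 lay more than 1 log2 unit above both other KO+EV libraries in KO+EV 3 and 770 lay as far below them. The corresponding numbers were at most 101 and 195 in any other of the 6 libraries. The first principal component, with 41.1% of the variance, separated WT+EV from KO+EV, and the second, with 33.0%, separated KO+EV 3 from KO+EV 1 and 2. Results that rest on KO+EV 3 are therefore given with and without it.

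The libraries carried the marker genes of their label. All 21 markers of MLL-AF9 myeloid leukaemia cells on the list used had counts, with summed levels of 12200 to 12800 CPM in WT+EV and 16900 to 60900 CPM in KO+EV, the highest being KO+EV 3. Summed B-cell markers were at 18.7 to 22.6 CPM in WT+EV and 16.9 to 26.1 CPM in KO+EV. Of the erythroid list (216 to 427 against 212 to 265 CPM), 4 globin genes had no counts. Summed T-cell and NK-cell markers were higher in every KO+EV library, at 50 to 156 CPM against 23.4 to 29.5 CPM. Most of that sum was Nkg7, a granule-membrane gene of cytotoxic lymphocytes, at 18.9, 22.9 and 15.8 CPM in WT+EV and 51.9, 37.1 and 148 CPM in KO+EV, whereas the NK-cell and killer-cell markers Ncr1 and Gzma had no counts. The T-cell receptor subunit Cd3e had 14, 8 and 5 counts in KO+EV and 0 in each WT+EV library. Summed mast cell, basophil and eosinophil markers were at 106 to 184 CPM in WT+EV and 115 to 441 CPM in KO+EV, with Fcer1a at 0. Neutrophil maturity is described with the granule genes below, without Ly6g, which was not analysed here. The part of other cells in the results below was not tested.

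Prdm16 itself was scarce in the wild-type leukaemia cells and nearly absent from the knockout. WT+EV held 17, 14 and 9 Prdm16 counts (0.991, 0.723 and 0.424 CPM) and KO+EV held 0, 2 and 1 (0, 0.0915 and 0.0521 CPM). Every WT+EV library was above every KO+EV library. The 3 counts that a zero allows corresponded to 0.152 CPM in KO+EV 1. Summed over the groups, 40 counts stood against 3, which after scaling for library size was a ratio of 14 with an exact 95% interval of 4.47 to 70.9 that covers counting error only. Prdm16 passed the filter on low counts only through the added-isoform libraries, where it had 3742 to 7021 counts, and it was not tested with the 6 libraries alone. Its fitted difference, -3.67 ± 0.69 (adjusted p = 0.0297), is therefore given as a value and not as support. Leaving out WT+EV 1 or 2 or KO+EV 1 or 2 brought the adjusted p to between 0.0531 and 0.0818, and without KO+EV 2 the difference was -4.46. None of the 20 nearest tested genes on its chromosome, 10 on each side, was called by edgeR, their differences ran from -2.02 to 1.59, an unadjusted p under 0.05 was reached by 2, and DESeq2 called 0. These neighbours were taken from the RefSeq gene order of GRCm38.p6. Of 19 tested genes of the list of PRDM16 paralogues, co-repressors and histone-modifying partners, edgeR called none, an unadjusted p under 0.05 was reached by 4, and DESeq2 called 0 higher and 1 lower. Over all 12958 genes tested, 2344 reached that unadjusted p and DESeq2 called 7.0%. The median difference of the 19 was 0.0415 against 0.00217 over all genes. The labels do not give the deleted part of the gene, and the counts cover the gene as a whole.

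Across the 12958 genes, 272 were called (2.1%), of which 117 were higher in KO+EV (0.903%) and 155 lower (1.2%). In the counts, KO+EV lay wholly above WT+EV for 1536 genes (11.9%) and wholly below for 1453 (11.2%), and this included each called gene. An unadjusted p under 0.05 was reached by 2344 of the 12958 genes. DESeq2 on the same counts called 907 genes (7.0%), among them 270 of the 272. Counts of list members below are to be read beside these values over all genes. The number of calls followed the libraries used. It was 425 (3.23%) without KO+EV 3, of which 188 were among the 272, 162 (1.23%) without WT+EV 2, 156 (1.18%) without KO+EV 1, 100 (0.758%) without WT+EV 1, 53 (0.402%) without WT+EV 3 and 26 (0.197%) without KO+EV 2. With the spread estimated from the 6 libraries alone, edgeR called 1 gene (0.00809%), Zfp783.

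**Figure D1:**
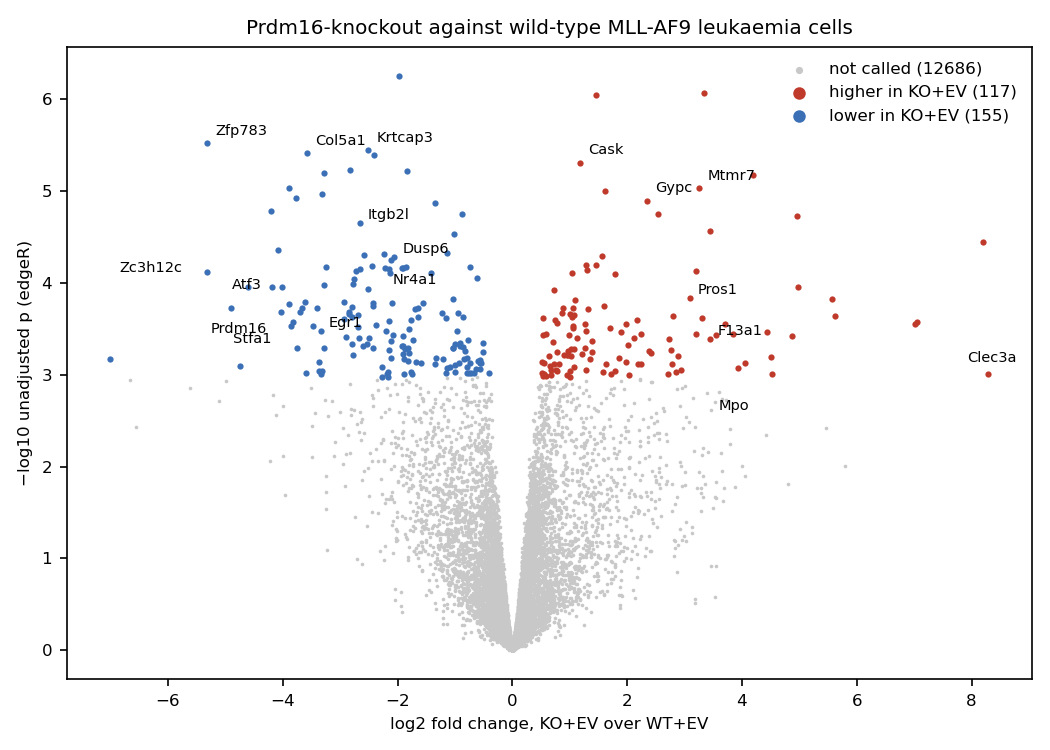
Log2 difference of each tested gene between KO+EV and WT+EV (x axis) against the negative log10 of its unadjusted p (y axis), with the 117 genes called higher and the 155 called lower in colour. Zfp783 and Zc3h12c lie at -5.31 and -5.33, and Mtmr7 and Gypc lie among the genes called higher at differences of 3.25 and 2.34.

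A set of 19 genes, 9 higher and 10 lower in KO+EV, was called in the fit of all 12 MLL-AF9 libraries and again each time 1 of the 6 compared libraries was left out of it. With the 6 libraries alone, only Zfp783 of the set was called. Of the 19 genes, 11 fell under the naming rule. Of the 5 higher ones, Cask, a scaffold protein of the membrane-associated guanylate kinase family, was at 25.2, 30.8 and 24.7 CPM in WT+EV and 52.6, 60.95 and 68.2 CPM in KO+EV. Gypc, glycophorin C of the membrane skeleton, was at 7.40, 13.2 and 12.7 CPM in WT+EV and 49.04, 63.01 and 56.8 CPM in KO+EV. Mtmr7, of the myotubularin family of phosphoinositide phosphatases, was at 1.34, 2.89 and 3.53 CPM in WT+EV and 25.8, 27.7 and 20.8 CPM in KO+EV. For each of these, the 3 KO+EV libraries lay above the 3 WT+EV libraries. The naming rule fixed this, since it took only genes without overlap between the groups. Mfsd7a, a transporter of the major facilitator family, was at 10.3, 8.41 and 10.4 CPM in WT+EV and 28.7, 32.2 and 28.1 CPM in KO+EV. Cyp4v3, a cytochrome P450 that hydroxylates fatty acids, was at 0.583, 2.27 and 1.51 CPM in WT+EV and 11.6, 7.18 and 6.82 CPM in KO+EV. The fitted differences were 1.17 ± 0.15 (adjusted p = 0.00729) for Cask, 2.34 ± 0.32 (adjusted p = 0.0091) for Gypc, 3.25 ± 0.44 (adjusted p = 0.00854) for Mtmr7, 1.62 ± 0.22 (adjusted p = 0.00854) for Mfsd7a and 2.54 ± 0.37 (adjusted p = 0.0105) for Cyp4v3.

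Of the 6 lower ones, Zfp783, a zinc-finger gene, was the most strongly reduced, from 20.1, 23.4 and 27.7 CPM in WT+EV to 0.661, 0.641 and 0.469 CPM in KO+EV. The gap of more than an order of magnitude between the groups was far wider than the spread within either. Col5a1, a chain of type V collagen, was at 21.9, 13.4 and 25.7 CPM in WT+EV and 1.32, 2.93 and 0.833 CPM in KO+EV, and L1cam, a neural and leukocyte adhesion molecule, was at 29.8, 13.6 and 20.5 CPM in WT+EV and 4.73, 4.03 and 3.18 CPM in KO+EV. Krtcap3 was at 21.4, 20.2 and 30.7 CPM in WT+EV and 5.19, 5.31 and 2.19 CPM in KO+EV. Lilrb4, an inhibitory receptor of myeloid cells, was at 22.3, 22.4 and 34.9 CPM in WT+EV and 7.83, 8.88 and 5.47 CPM in KO+EV. Itgb2l, an integrin beta chain of neutrophil precursors, was at 50.9, 49.5 and 111 CPM in WT+EV and 10.1, 16.1 and 7.34 CPM in KO+EV. KO+EV lay below WT+EV throughout, which the naming rule fixed, and KO+EV 3 was the lowest library for each of the 6. The fitted differences were -5.31 ± 0.64 (adjusted p = 0.00729) for Zfp783, -3.57 ± 0.44 (adjusted p = 0.00729) for Col5a1, -2.42 ± 0.30 (adjusted p = 0.00729) for L1cam, -2.51 ± 0.31 (adjusted p = 0.00729) for Krtcap3, -1.84 ± 0.24 (adjusted p = 0.00729) for Lilrb4 and -2.66 ± 0.39 (adjusted p = 0.0121) for Itgb2l. Without KO+EV 2 the difference of Col5a1 was -4.23.

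Further genes that the naming rule selected by their small p were called in the fit of all 12 libraries but not in each smaller set. Dab2, an endocytic adaptor of growth factor and TGF-beta signalling, was at 1.40, 1.39 and 1.37 CPM in WT+EV and 5.34, 13.04 and 20.1 CPM in KO+EV, a difference of 3.20 ± 0.54 (adjusted p = 0.0196). Mgat5, which branches N-glycans, was at 82.4, 122 and 71.1 CPM in WT+EV and 252, 320.5 and 187 CPM in KO+EV and rose by 1.46 ± 0.24 (adjusted p = 0.0196). Ctnnd1, the p120-catenin of adherens junctions, was at 51.8, 96.9 and 68.8 CPM in WT+EV and 147, 152 and 163 CPM in KO+EV, a difference of 1.09 ± 0.20 (adjusted p = 0.0297). Among the lower genes, Dgat1, the last enzyme of triglyceride synthesis, was at 175, 144 and 153 CPM in WT+EV and 90.3, 77.97 and 89.2 CPM in KO+EV and changed by -0.87 ± 0.13 (adjusted p = 0.0105). Its fold was small, and the lowest WT+EV library was above the highest KO+EV library, as the naming rule required. Il18rap, the accessory chain of the interleukin-18 receptor, was at 45.8, 38.1 and 38.2 CPM in WT+EV and 17.6, 19.4 and 18.5 CPM in KO+EV, a difference of -1.14 ± 0.18 (adjusted p = 0.0196). Ahnak, a giant scaffold protein under the plasma membrane, was at 28.04, 29.5 and 18.4 CPM in WT+EV and 8.19, 3.34 and 4.63 CPM in KO+EV, a difference of -2.23 ± 0.35 (adjusted p = 0.0196). Dmc1, the meiotic recombinase, was at 32.8, 17.6 and 12.2 CPM in WT+EV and 1.58, 1.56 and 0.521 CPM in KO+EV, a difference of -4.08 ± 0.64 (adjusted p = 0.0196). Frat1, which binds GSK3 in Wnt signalling, was at 32.8, 31.4 and 24.2 CPM in WT+EV and 15.97, 14.8 and 12.97 CPM in KO+EV, a difference of -1.02 ± 0.16 (adjusted p = 0.0145). Dab2 was not called without WT+EV 1, 2 or 3 or KO+EV 2 (adjusted p 0.0506 to 0.0689), nor Mgat5 and Ctnnd1 without WT+EV 1 or 3 or KO+EV 2 (0.0543 to 0.0851) or Dgat1, Il18rap, Ahnak, Dmc1 and Frat1 without KO+EV 2 (0.0678 to 0.0689).

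**Figure D2:**
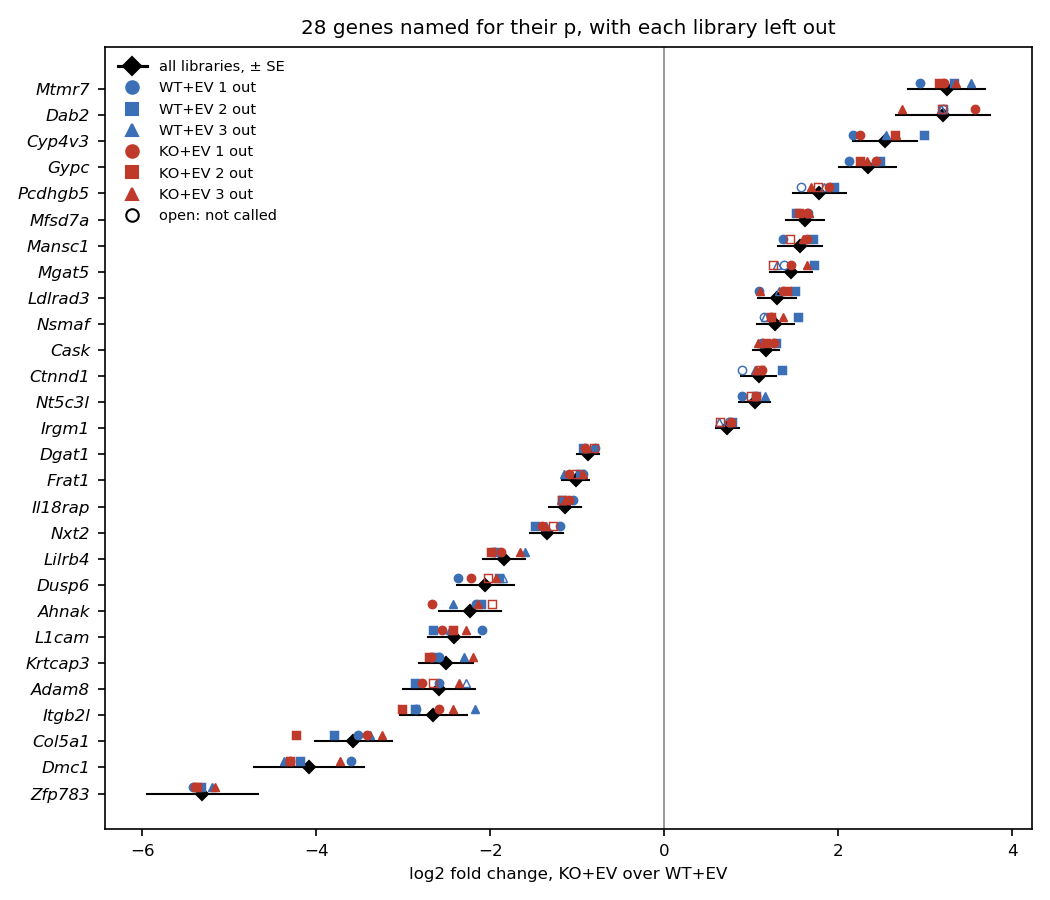
Log2 difference between KO+EV and WT+EV (x axis) for the 28 genes named by smallest p, from the fit of all 12 libraries (large points, bars are the SE) and with each of the 6 compared libraries left out in turn (small points, open where the gene was not called). No value crosses 0, which the choice of genes without overlap between the groups largely fixed. The open points belong mostly to the sets without KO+EV 2, WT+EV 3 or WT+EV 1.

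A number of immediate early genes fell in KO+EV, among them Atf3, Maff, Nr4a1 and Egr1. Such genes are transcribed within minutes of a growth factor or stress signal, and many carry in their promoters the cAMP response element (CRE), which CREB and ATF proteins bind. The promoters that had a window in the RefSeq table were searched for this reason, which leaves out Egr1, Egr3 and Ier2, all of which fell. Searched on both strands in the 250 bases before the start, the CRE core TGACG, which the full element TGACGTCA contains on each strand and no other motif searched contains, was present in 8 of the 11 AP-1 genes of the list that had a window in the RefSeq table and in 10 of 17 genes of the EGR, NR4A and IER list. It was present in 19.8% of all 27025 genes with a window. The shares over all genes, here and for the other motifs, cover genes whether or not they were tested. A gene with several windows counted if any of them held a match, and the base composition of the windows was not taken into account. The windows of Fosl2 and Ier5, which also fell, did not hold it. The AP-1 site TGANTCA was in 0 of the 11 and 1 of the 17, against 7.82% of all genes, and the CArG box of serum response factor was in 0 of the 11 and 2 of the 17, against 1.62%. Each sequence below is 1 window in GRCm38.p6, 5' to 3' on the strand of the gene, with the match in capitals: the core on the opposite strand in Atf3 (chr1:191183334-191183583, minus strand), the full element in Maff (chr15:79347270-79347519, plus strand, 1 of its 3 windows), and 4 cores in Nr4a1 (chr15:101266596-101266845, plus strand).
Atf3: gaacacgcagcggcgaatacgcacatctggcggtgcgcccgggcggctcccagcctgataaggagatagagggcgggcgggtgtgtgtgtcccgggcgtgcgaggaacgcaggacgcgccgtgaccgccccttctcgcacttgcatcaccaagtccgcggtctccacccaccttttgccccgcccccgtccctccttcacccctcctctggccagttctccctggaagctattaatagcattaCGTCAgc
Maff: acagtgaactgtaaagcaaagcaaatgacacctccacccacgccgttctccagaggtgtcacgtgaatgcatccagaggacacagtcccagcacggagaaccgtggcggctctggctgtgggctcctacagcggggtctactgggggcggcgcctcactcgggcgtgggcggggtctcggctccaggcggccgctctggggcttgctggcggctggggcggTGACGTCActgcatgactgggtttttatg
Nr4a1: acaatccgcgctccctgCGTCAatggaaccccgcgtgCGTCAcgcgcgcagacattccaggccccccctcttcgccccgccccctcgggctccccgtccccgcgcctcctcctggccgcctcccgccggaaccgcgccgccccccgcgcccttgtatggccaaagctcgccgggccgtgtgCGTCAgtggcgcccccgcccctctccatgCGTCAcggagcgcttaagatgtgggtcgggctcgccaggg
The matches began 7 bases before the start in Atf3, 29 in Maff and 233, 213, 69 and 40 in Nr4a1. A match describes these letters only, and no binding was measured.

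Of the AP-1 genes, whose products pair as Fos, Jun, ATF and Maf dimers on DNA, 13 were tested. Of these, 3 fell (1.2% of all genes did) and none rose. KO+EV lay wholly below WT+EV for 9, against 11.2% of all genes, and the median difference was -1.77, against 0.00217 over all genes. DESeq2 called 8 lower. The members that fell were Atf3, Fosl2 and Maff. Atf3, a stress-induced factor, was at 7.93, 70.04 and 39.2 CPM in WT+EV and 2.75, 1.88 and 2.66 CPM in KO+EV, with WT+EV 1 the lowest of its group but above all 3 KO+EV libraries, and changed by -4.01 ± 0.68 (adjusted p = 0.0237). Fosl2, the late-acting Fos relative Fra-2, was at 81.02, 145 and 166 CPM in WT+EV and 59.7, 47.8 and 61.4 CPM in KO+EV, a difference of -1.22 ± 0.27 (adjusted p = 0.0439). Maff, a small Maf protein, was at 6.18, 14.04 and 14.98 CPM in WT+EV and 5.14, 3.25 and 1.93 CPM in KO+EV, a difference of -1.77 ± 0.40 (adjusted p = 0.0486). Fos was at 252, 696 and 616 CPM in WT+EV and 90.4, 17.5 and 283 CPM in KO+EV, and Jun at 392, 1430 and 1235 CPM in WT+EV and 136, 18.4 and 389 CPM in KO+EV. For both, KO+EV 2 was the lowest library and KO+EV 3 was close to WT+EV 1, overlapping it for Fos. Their differences were -2.001 ± 0.97 (adjusted p = 0.312) for Fos and -2.49 ± 0.93 (adjusted p = 0.184) for Jun, neither called. Fosb, at 189, 951 and 909 CPM in WT+EV and 46.3, 11.6 and 131 CPM in KO+EV, did not overlap between the groups and was not called at -3.44 ± 0.89 (adjusted p = 0.0737). Atf3 was not called without WT+EV 3 or KO+EV 1 or 2 (adjusted p 0.0521 to 0.0985), nor Fosl2 without WT+EV 2 or 3 or KO+EV 1 or 2 (0.0794 to 0.152) or Maff without WT+EV 2 or 3 or KO+EV 2 or 3 (0.0709 to 0.156). The number of AP-1 genes called lower was 5 without WT+EV 1, 1 without WT+EV 2 or KO+EV 1, 0 without WT+EV 3 or KO+EV 2, and 5 without KO+EV 3. The median kept its sign in these sets and in the other settings tried, from -2.08 to -1.48. Leaving out 1 library moved Atf3 to -3.28 without WT+EV 2, Fos to -3.27 without KO+EV 3, Jun to -3.72 without KO+EV 3 and Fosb to -4.56 without KO+EV 3. Fosb was called lower without KO+EV 3 (adjusted p = 0.036).

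The EGR zinc-finger factors and NR4A orphan nuclear receptors form, with the IER genes, another early response list. Of its 22 tested genes, 5 fell (1.2% of all genes did) and none rose, with KO+EV wholly below WT+EV for 15, against 11.2% of all genes, and a median of -1.39. DESeq2 called 13 lower. Egr1 was at 78.7, 194 and 356 CPM in WT+EV and 39.3, 13.3 and 9.63 CPM in KO+EV, widely apart within WT+EV, and changed by -3.34 ± 0.65 (adjusted p = 0.0343). Egr3 was barely detected in the knockout, at 0.816, 1.81 and 4.95 CPM in WT+EV and 0.203, 0.0915 and 0 CPM in KO+EV, and changed by -4.60 ± 0.81 (adjusted p = 0.0237). Nr4a1, the receptor Nur77, was at 23.4, 37.7 and 54.7 CPM in WT+EV and 11.5, 8.46 and 4.84 CPM in KO+EV, a difference of -2.22 ± 0.37 (adjusted p = 0.0196). In these 3 genes KO+EV 3 was the lowest library, unlike in Fos and Jun. Ier2 was at 173, 262 and 342 CPM in WT+EV and 116, 75.8 and 101 CPM in KO+EV (-1.41 ± 0.24, adjusted p = 0.0196), and Ier5, which acts with heat shock factor 1, was at 45.6, 65.7 and 48.3 CPM in WT+EV and 15.97, 14.4 and 18.7 CPM in KO+EV (-1.70 ± 0.32, adjusted p = 0.0297). Klf2, a quiescence factor, was at 335, 814 and 529.5 CPM in WT+EV and 93.1, 5.99 and 175 CPM in KO+EV and was not called at -2.62 ± 0.90 (adjusted p = 0.155). Nr4a1, Ier2 and Egr3 were not called without WT+EV 3 or KO+EV 2 (adjusted p 0.0547 to 0.0975), nor Egr1 without WT+EV 2 or 3 or KO+EV 2 or 3 (0.0518 to 0.134) or Ier5 without WT+EV 1, 2 or 3 or KO+EV 1 or 2 (0.0519 to 0.109). The number of genes of the list called lower was 7, 3 and 0 without WT+EV 1, 2 and 3, and 4, 0 and 6 without KO+EV 1, 2 and 3. The difference moved for Egr1 to -2.72 without WT+EV 3 and -4.19 without KO+EV 1, Egr3 to -3.66 without WT+EV 3 and -5.55 without KO+EV 1 and Klf2 to -3.49 without KO+EV 3.

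Genes that feed back on ERK signalling included 2 that fell among 16 tested, with none higher and a median of -0.925. Over all genes, 1.2% fell. DESeq2 called 4 lower. Dusp6, the cytosolic phosphatase of ERK, was at 14.2, 33.2 and 35.1 CPM in WT+EV and 8.04, 6.41 and 5.42 CPM in KO+EV, with no overlap, and changed by -2.06 ± 0.33 (adjusted p = 0.0196). Spry1, a Sprouty inhibitor of receptor signalling to RAS, was at 2.33, 5.68 and 2.03 CPM in WT+EV and 0.305, 0.229 and 0.937 CPM in KO+EV, a difference of -2.77 ± 0.60 (adjusted p = 0.0421). Dusp1, the nuclear phosphatase of stress kinases, was at 273, 683 and 866 CPM in WT+EV and 92.6, 30.3 and 328 CPM in KO+EV. In Dusp1 the KO+EV and WT+EV libraries overlapped, because KO+EV 3 was above WT+EV 1, and it was not called at -2.02 ± 0.91 (adjusted p = 0.275). Of 16 tested genes of the list of mRNA-decay factors that bind AU-rich or stem-loop elements, 1 fell. This was Zc3h12c, an RNase of the Regnase family, at 145, 119 and 23.9 CPM in WT+EV and 5.44, 1.28 and 0.469 CPM in KO+EV, with a difference of -5.33 ± 0.87 (adjusted p = 0.0196). WT+EV 3 was the lowest wild-type library for Zc3h12c and was still above every KO+EV library. The other 15 were not called by edgeR, DESeq2 called 2 of the list lower, and the median of the list was 0.114. Leaving out 1 library moved Spry1 to -2.15 without WT+EV 2 and -3.62 without KO+EV 3, Dusp1 to -3.30 without KO+EV 3 and Zc3h12c to -6.74 without KO+EV 1. Dusp6 was not called without WT+EV 3 or KO+EV 2 (adjusted p 0.0508 to 0.0813), nor Spry1 without WT+EV 1, 2 or 3 or KO+EV 1 or 2 (0.0589 to 0.149) or Zc3h12c without KO+EV 2 (0.0943).

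**Figure D3:**
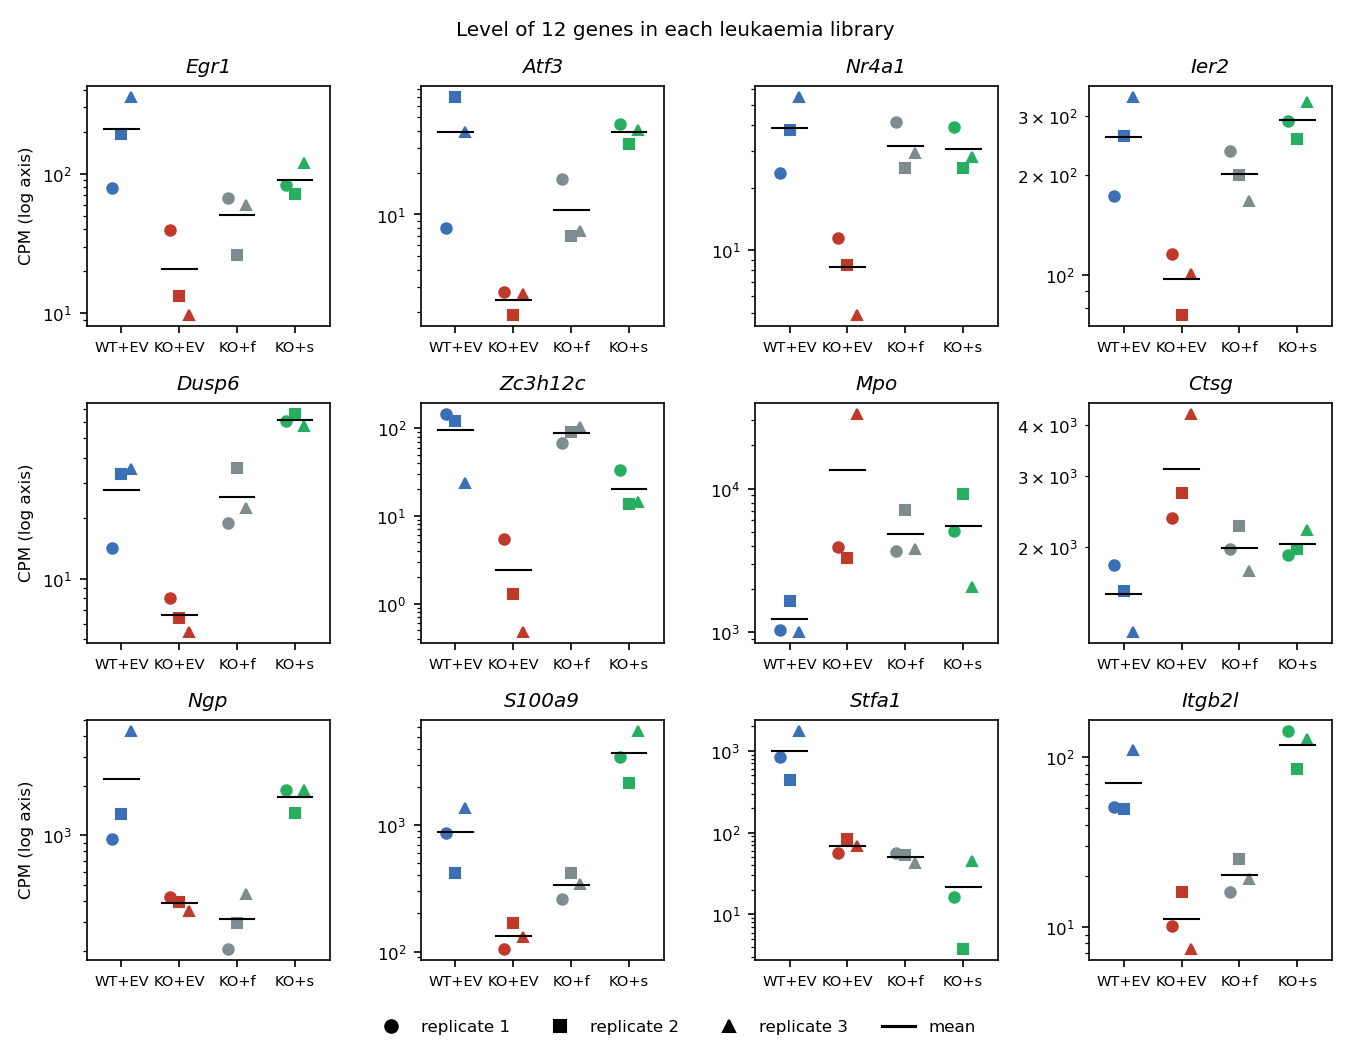
Level of 12 genes in CPM (y axis, log scale) in each of the 12 MLL-AF9 libraries, with a line at the mean of each group (WT+EV, KO+EV and the knockout with isoform f or s added). The early genes Egr1, Atf3, Nr4a1 and Ier2 lie below the lowest WT+EV library in all 3 KO+EV libraries, S100a9, Stfa1 and Itgb2l likewise, whereas Ctsg is higher and Mpo is far higher in KO+EV 3 than anywhere else.

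Primary granule genes had mostly positive differences and secondary and tertiary granule genes mostly negative ones. Of 14 tested primary granule genes, 1 rose (0.903% of all genes did) and none fell. A positive difference was found for 13, KO+EV was wholly above WT+EV for 6, against 11.9% of all genes, and the median was 0.861. DESeq2 called 6 higher and 1 lower. The gene that rose was Ctsg, cathepsin G, at 1804, 1555 and 1226 CPM in WT+EV and 2358, 2714 and 4268 CPM in KO+EV, a difference of 1.03 ± 0.22 (adjusted p = 0.0397). Mpo, myeloperoxidase, was at 1039, 1649 and 993 CPM in WT+EV and 3889, 3270 and 33200 CPM in KO+EV, so that KO+EV 3 held most of the group's counts. The difference for Mpo was 3.46 ± 0.88 (adjusted p = 0.0707) with all libraries and 1.55 (adjusted p = 0.132) without KO+EV 3. The serine protease Prtn3, proteinase 3, was at 1577, 1450 and 1556 CPM in WT+EV and 2145, 2239 and 6335 CPM in KO+EV, and Elane, neutrophil elastase, at 2352, 2479 and 3078 CPM in WT+EV and 3371, 3415 and 13120 CPM in KO+EV. All 3 KO+EV libraries exceeded all 3 WT+EV libraries for both, KO+EV 3 by the most, and neither was called, at 1.23 ± 0.34 (adjusted p = 0.0869) for Prtn3 and 1.33 ± 0.44 (adjusted p = 0.138) for Elane. Without KO+EV 3 the values were 0.52 (adjusted p = 0.052) and 0.37 (adjusted p = 0.225). Summed over the list, WT+EV was at 10500, 10200 and 10900 CPM and KO+EV at 15900, 15600 and 63000 CPM, and the median without KO+EV 3 was 0.400. Ctsg was not called without WT+EV 1, 2 or 3 or KO+EV 2 (adjusted p 0.0574 to 0.117). In bulk libraries, fewer cells of a type and less RNA per cell cannot be told apart, and this holds for all granule genes here.

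Among the secondary and tertiary granule genes, those that fell included Lcn2, Ngp, Anxa1 and Adam8. C/EBP factors drive many of these genes, and their promoters were searched for that reason: TTGCNNAA, a part of the C/EBP site, was found on either strand in the 250 bases before the start in 6 of the 15 listed genes with a window (40.0%), in 2 of 11 S100 and stefin genes, in 1 of 11 primary granule genes and in 10.8% of all 27025 genes. The CRE core was in 0 of the same 15. The AP-1 site was in 2 of them. Of the genes of the list that fell, Itgb2l and Olfm4 had a window without the C/EBP motif and Mmp9 had no window. The windows of 4 genes that fell and held a match are shown, with the match in capitals: Lcn2 (chr2:32387740-32387989, minus strand), Ngp (chr9:110419558-110419807, plus strand), Anxa1 (chr19:20390672-20390921, minus strand) and Adam8 (chr7:139992563-139992812, minus strand), all in GRCm38.p6 and 5' to 3' on the strand of the gene.
Lcn2: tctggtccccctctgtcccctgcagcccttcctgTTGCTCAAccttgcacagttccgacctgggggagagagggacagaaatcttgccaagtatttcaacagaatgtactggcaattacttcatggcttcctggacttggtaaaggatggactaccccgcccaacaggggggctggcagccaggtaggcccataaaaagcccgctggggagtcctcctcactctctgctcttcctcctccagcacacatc
Ngp: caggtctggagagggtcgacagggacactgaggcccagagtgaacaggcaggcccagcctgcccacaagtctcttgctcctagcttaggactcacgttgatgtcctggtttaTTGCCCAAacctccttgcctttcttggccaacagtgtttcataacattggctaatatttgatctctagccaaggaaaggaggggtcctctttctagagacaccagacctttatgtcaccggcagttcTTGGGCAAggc
Anxa1: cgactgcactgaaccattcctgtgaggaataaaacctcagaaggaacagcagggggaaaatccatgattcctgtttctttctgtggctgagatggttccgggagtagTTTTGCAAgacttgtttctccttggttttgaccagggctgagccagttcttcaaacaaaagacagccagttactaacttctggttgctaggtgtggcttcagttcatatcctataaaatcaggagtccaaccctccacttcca
Adam8: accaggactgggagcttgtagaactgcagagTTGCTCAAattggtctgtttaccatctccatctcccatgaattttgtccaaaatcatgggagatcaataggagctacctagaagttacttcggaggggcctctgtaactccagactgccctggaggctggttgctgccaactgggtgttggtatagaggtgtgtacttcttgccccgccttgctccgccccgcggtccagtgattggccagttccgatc
The matches began 216 bases before the start in Lcn2, 138 and 11 in Ngp, 143 in Anxa1 and 219 in Adam8.

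Of 21 tested genes of this list, 7 fell (1.2% of all genes did) and none rose. KO+EV was wholly below WT+EV for 16, against 11.2% of all genes, and the median was -1.59. DESeq2 called 11 lower. Lcn2, the iron-siderophore binder of secondary granules, was at 363, 124 and 472 CPM in WT+EV and 80.1, 93.4 and 40.2 CPM in KO+EV, where WT+EV 2 came close to KO+EV 2 without overlapping, and changed by -2.17 ± 0.49 (adjusted p = 0.04996). Ngp, neutrophilic granule protein, was at 952, 1344 and 4301 CPM in WT+EV and 421, 397 and 350.1 CPM in KO+EV, with WT+EV 3 well above the other 2 wild-type libraries, and changed by -2.50 ± 0.50 (adjusted p = 0.036). Anxa1, the anti-inflammatory phospholipid binder annexin A1, was at 229.5, 115 and 114 CPM in WT+EV and 52.5, 36.5 and 33.6 CPM in KO+EV, a difference of -1.90 ± 0.31 (adjusted p = 0.0196). Adam8, a membrane metalloprotease, was at 42.7, 24.7 and 59.5 CPM in WT+EV and 8.75, 7.69 and 4.58 CPM in KO+EV (-2.59 ± 0.41, adjusted p = 0.0196). Mmp9, gelatinase B of tertiary granules, was at 178, 66.2 and 118 CPM in WT+EV and 23.4, 19.7 and 9.43 CPM in KO+EV (-2.78 ± 0.47, adjusted p = 0.0237). Olfm4, which marks a subset of neutrophils, was at 66.5, 113 and 487 CPM in WT+EV and 12.2, 13.1 and 19.5 CPM in KO+EV (-3.90 ± 0.70, adjusted p = 0.0297). The seventh was Itgb2l, described above. Camp, the cathelicidin precursor, was at 298, 589.5 and 2635 CPM in WT+EV and 89.99, 119.9 and 172 CPM in KO+EV and was not called (-3.20 ± 0.84, adjusted p = 0.0771). The summed level of the list was 4500, 4270 and 11200 CPM in WT+EV and 2450, 2300 and 2440 CPM in KO+EV, where the 3 libraries were alike. Leaving out 1 library moved Ngp to -1.57 without WT+EV 3, Olfm4 to -2.60 without WT+EV 3 and Camp to -1.81 without WT+EV 3. Lcn2 was not called without WT+EV 1 or 3 or KO+EV 1, 2 or 3 (adjusted p 0.0849 to 0.146), nor Ngp without WT+EV 3 or KO+EV 1, 2 or 3 (0.0508 to 0.125) or Anxa1 without KO+EV 2 (0.0876). Adam8 was not called without WT+EV 3 or KO+EV 2 (adjusted p 0.0508 to 0.0743), nor Mmp9 without WT+EV 1 or 3 or KO+EV 2 (0.0528 to 0.0899) or Olfm4 without KO+EV 1 or 2 (0.061 to 0.109). The number of genes of the list called lower lay between 1 (without KO+EV 2) and 7 (without WT+EV 2), with 3 without WT+EV 3 and 5 in each of the other sets.

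The list of S100 proteins and stefins joins separate families, of which some members are abundant in the cytosol of mature neutrophils. Of its 15 tested genes, 8 fell, against 1.2% of all genes. None rose, although 3 had a positive difference, and the median was -2.27. KO+EV was wholly below WT+EV for 8, against 11.2% of all genes. DESeq2 also called 8 lower. The stefin cluster is made of near-identical copies, so that its reads may be divided between members and single members are uncertain. The 8 calls included Stfa1, Stfa2l1, Stfa3 and BC117090 of this cluster and may not be 8 separate changes. S100a9, a calcium-binding subunit of calprotectin, was at 864, 415 and 1371 CPM in WT+EV and 104, 168 and 129 CPM in KO+EV, a difference of -2.72 ± 0.45 (adjusted p = 0.0196). Its partner S100a8 was at 743, 396 and 1602 CPM in WT+EV and 164, 186 and 216 CPM in KO+EV, a difference of -2.27 ± 0.52 (adjusted p = 0.04996). The lowest wild-type library for both was WT+EV 2, which still lay above all 3 KO+EV libraries. Stfa1 was at 831, 439 and 1748 CPM in WT+EV and 56.6, 83.9 and 67.9 CPM in KO+EV (-3.86 ± 0.74, adjusted p = 0.0324), and Stfa2l1 at 40.8, 28.9 and 68.2 CPM in WT+EV and 2.80, 6.45 and 5.21 CPM in KO+EV (-3.25 ± 0.53, adjusted p = 0.0196). Summed over the list, the levels were 3140, 1730 and 6010 CPM in WT+EV and 607, 744 and 747 CPM in KO+EV. S100a9 was not called without WT+EV 3 or KO+EV 1 or 2 (adjusted p 0.05037 to 0.0697), nor S100a8 and Stfa1 without WT+EV 1 or 3 or KO+EV 1, 2 or 3 (0.0519 to 0.165) or Stfa2l1 without WT+EV 3 or KO+EV 2 (0.0538 to 0.0689). The number called lower was 5, 7 and 0 without WT+EV 1, 2 and 3, and 2, 0 and 6 without KO+EV 1, 2 and 3. The difference moved for S100a8 to -1.61 without WT+EV 3 and Stfa1 to -3.21 without WT+EV 3.

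Surface receptors of neutrophils and the transcription factors of the lineage showed fewer calls. Of 21 tested receptor genes, 2 fell and none rose, with KO+EV wholly below WT+EV for 11, wholly above for 2 and a median of -0.637. Over all genes, 1.2% fell, and KO+EV was wholly below WT+EV for 11.2% and wholly above for 11.9%. Trem1, an amplifying receptor of inflammation, was at 54.1, 103 and 249 CPM in WT+EV and 22.6, 21.9 and 18.8 CPM in KO+EV, a difference of -2.68 ± 0.50 (adjusted p = 0.0306). Ceacam1, an inhibitory adhesion receptor, was at 144, 110.3 and 162 CPM in WT+EV and 96.1, 77.7 and 77.02 CPM in KO+EV, a difference of -0.73 ± 0.16 (adjusted p = 0.045). Among 25 tested myeloid transcription factors, 1 fell, Egr1, and the median was -0.55. Cebpe, the factor of secondary granule genes, was at 139, 109 and 181 CPM in WT+EV and 87.95, 48.7 and 44.4 CPM in KO+EV, without overlap, and was not called (-1.24 ± 0.34, adjusted p = 0.089). Cebpa, which acts earlier, was at 180.3, 158 and 99.7 CPM in WT+EV and 185, 213 and 249 CPM in KO+EV, higher in each KO+EV library than in any WT+EV library, and was not called (0.57 ± 0.20, adjusted p = 0.165). Of 8 tested genes of the phagocyte NADPH oxidase, edgeR called none, an unadjusted p under 0.05 was reached by 4, and DESeq2 called 0 higher and 2 lower. Without WT+EV 3 the difference of Trem1 was -1.91. Trem1 was not called without WT+EV 3 or KO+EV 1 or 2 (adjusted p 0.0547 to 0.109), nor Ceacam1 without WT+EV 1 or 3 or KO+EV 1, 2 or 3 (0.053 to 0.156).

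**Figure D4:**
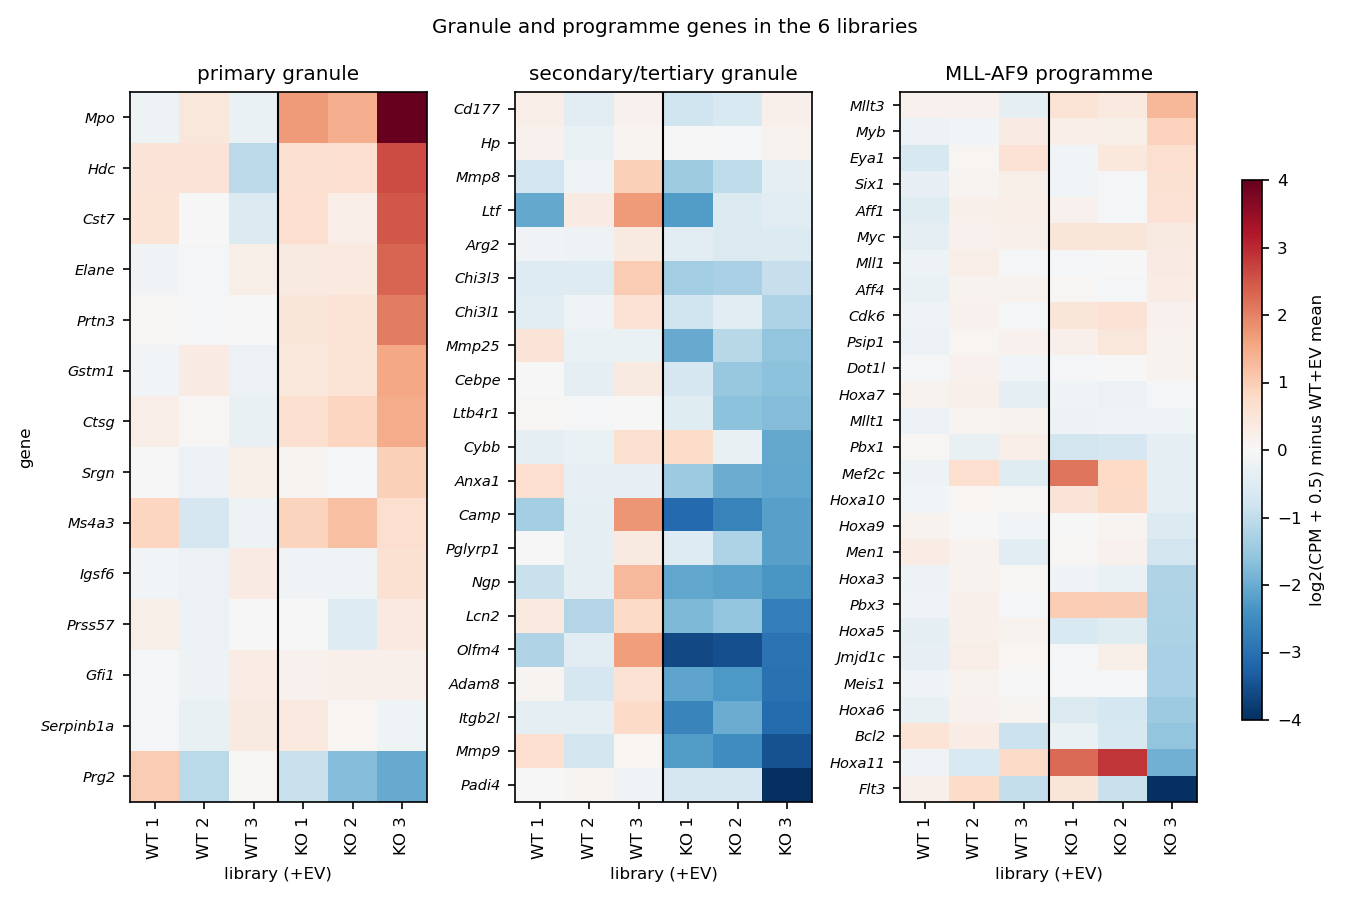
Level of primary granule genes, secondary and tertiary granule genes and genes of the MLL-AF9 programme (rows) in the 6 libraries (columns), as log2(CPM + 0.5) minus the WT+EV mean of that gene, with colour saturating at 4 log2 units in either direction. Most secondary and tertiary granule genes are low in all 3 KO+EV libraries, whereas the strongest colours of the primary granule genes, and the low values of several MLL-AF9 genes, belong to KO+EV 3.

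Genes of the leukaemic programme differed little between the groups in median. Of 27 tested genes of the MLL-AF9 target list, which holds the Hoxa cluster, Meis1 and their partners, edgeR called none, KO+EV was wholly above WT+EV for 2 and wholly below for 3, and the median was 0.064. In this list an unadjusted p under 0.05 was reached by 6, and DESeq2 called 0 higher and 2 lower. Over all 12958 genes, 2344 reached that unadjusted p, DESeq2 called 7.0%, and KO+EV was wholly above WT+EV for 11.9% and wholly below for 11.2%. Hoxa9 was at 256, 232 and 214 CPM in WT+EV and 238, 249 and 159 CPM in KO+EV, and Meis1, its cofactor, was at 143, 173 and 156 CPM in WT+EV and 150.2, 150.2 and 62.9 CPM in KO+EV. For both, KO+EV 1 and 2 lay within the wild-type range and KO+EV 3 was the lowest library. Hoxa6 (-0.89 ± 0.23, adjusted p = 0.0701) and Hoxa5 (-0.78 ± 0.21, adjusted p = 0.0865) had the smallest p of the list. KO+EV 3 was low in 4 further genes, chosen, like Hoxa9 and Meis1, after their values were seen. Flt3, a growth factor receptor of progenitors, was at 51.9, 19.8 and 0.260 CPM in KO+EV, Hoxa11 was at 36.9, 55.8 and 1.56 CPM, and Pbx3, a Hox cofactor, was at 247, 240.5 and 52.1 CPM. The monocyte factor Irf8 was at 101, 62.6 and 9.01 CPM. The WT+EV levels were 43.2, 61.7 and 19.04 CPM for Flt3, 6.53, 4.59 and 12.7 CPM for Hoxa11, 111, 141 and 116 CPM for Pbx3 and 138, 116 and 38.8 CPM for Irf8.

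Of 30 tested monocyte and macrophage genes, 1 rose and 1 fell, with a median of -0.336, while over all genes 0.903% rose and 1.2% fell. The listed gene that rose was F13a1, the coagulation factor XIII A chain, at 77.6, 50.5 and 40.1 CPM in WT+EV and 168, 298 and 1355 CPM in KO+EV. Its difference was 3.44 ± 0.69 (adjusted p = 0.0362) with all libraries and 2.06 (adjusted p = 0.021) without KO+EV 3. The one that fell was Fn1, fibronectin, at 56.1, 37.9 and 44.1 CPM in WT+EV and 17.4, 5.03 and 8.18 CPM in KO+EV, a difference of -2.18 ± 0.49 (adjusted p = 0.0486). Of 20 tested genes of coagulation and the TAM receptors, 2 rose, F13a1 and Pros1. Pros1 encodes protein S, a ligand of the TAM receptors, and was at 0.350, 1.39 and 1.74 CPM in WT+EV and 14.7, 10.8 and 4.69 CPM in KO+EV, a difference of 3.09 ± 0.56 (adjusted p = 0.0295). Of 23 integrin and adhesion genes, 2 fell, Itgb2l and Itgb2. Itgb2, the CD18 chain of leukocyte integrins, was at 967, 732 and 794 CPM in WT+EV and 549, 501 and 521 CPM in KO+EV, a difference of -0.67 ± 0.15 (adjusted p = 0.0486). Of 24 tested growth factor and cytokine receptors, 1 rose and none fell, and the median was 0.0547. The receptor that rose was Ifngr1, the ligand-binding chain of the interferon-gamma receptor. It was at 497, 482 and 443 CPM in WT+EV and 783, 656 and 892 CPM in KO+EV, a difference of 0.71 ± 0.15 (adjusted p = 0.0376). Without KO+EV 1 the difference of Fn1 was -2.80. F13a1 and Pros1 were not called without WT+EV 1, 2 or 3 or KO+EV 2 (adjusted p 0.0543 to 0.115), nor Fn1 without WT+EV 1, 2 or 3 or KO+EV 2 or 3 (0.0772 to 0.149) or Itgb2 and Ifngr1 without any 1 of the 6 libraries (0.0544 to 0.166).

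Some inflammatory mediators were called. Of 19 tested genes of the interleukin-1, TNF and inflammasome list, 2 fell, against 1.2% of all genes. Nlrp3, the inflammasome sensor, was at 4.14, 33.4 and 15.2 CPM in WT+EV and 1.73, 1.01 and 1.30 CPM in KO+EV (-3.71 ± 0.68, adjusted p = 0.0306), and Tnf was at 13.9, 14.6 and 15.8 CPM in WT+EV and 5.29, 3.02 and 5.94 CPM in KO+EV (-1.64 ± 0.31, adjusted p = 0.0297). Among 12 tested chemokine ligands, Cxcl2, which attracts neutrophils, fell, from 3.09, 4.75 and 10.8 CPM to 0.763, 0.503 and 0.521 CPM (-3.37 ± 0.76, adjusted p = 0.0486). Ccl9 and Ccl7, which attract monocytes, rose, so that 2 of the 12 were called higher, against 0.903% of all genes. Ccl9 was at 71.05, 145 and 89.5 CPM in WT+EV and 276, 204 and 297 CPM in KO+EV (1.35 ± 0.29, adjusted p = 0.0439), and Ccl7 at 0.0583, 0.206 and 0.189 CPM in WT+EV and 0.509, 1.24 and 1.72 CPM in KO+EV (2.85 ± 0.65, adjusted p = 0.0486). No chemokine was called without KO+EV 3. Of 24 tested NF-kB subunits and inhibitors edgeR called none, an unadjusted p under 0.05 was reached by 4, and DESeq2 called 1 higher and 1 lower, and their median was -0.115. Leaving out 1 library moved Nlrp3 to -2.85 without WT+EV 2 and Cxcl2 to -2.72 without WT+EV 3. Nlrp3 was not called without WT+EV 3 or KO+EV 1 or 2 (adjusted p 0.0544 to 0.115), nor Tnf without WT+EV 1, 2 or 3 or KO+EV 1 or 2 (0.0522 to 0.0975) or Cxcl2 without any 1 of the 6 libraries (0.0644 to 0.166). Ccl9 was not called without WT+EV 1 or 3 or KO+EV 1, 2 or 3 (adjusted p 0.0585 to 0.123), nor Ccl7 without WT+EV 1, 2 or 3 or KO+EV 2 or 3 (0.0744 to 0.152).

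In the interferon response list, 1 of 41 tested genes rose (0.903% of all genes did) and none fell. KO+EV was wholly above WT+EV for 8, against 11.9% of all genes, and wholly below for 0, and the median was 0.156. DESeq2 called 6 higher. The call was Irgm1, an immunity-related GTPase, at 21.98, 22.9 and 18.8 CPM in WT+EV and 33.01, 39.03 and 33.2 CPM in KO+EV (0.73 ± 0.13, adjusted p = 0.0244). The number called higher was 5 without KO+EV 3 and 0 without KO+EV 2 or WT+EV 3, and the median was -0.00338 without KO+EV 2. Irgm1 was not called without WT+EV 1 or 3 or KO+EV 2 (adjusted p 0.0503 to 0.1).

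Some genes of proliferation and metabolism were called, beside 0.903% of all genes called higher and 1.2% called lower. Of 29 tested genes of mitosis, 2 rose, Plk1 and Ube2c, 26 had a positive difference, and the median was 0.217. Plk1, the mitotic kinase, was at 71.6, 77.7 and 51.5 CPM in WT+EV and 121, 117 and 106 CPM in KO+EV (0.78 ± 0.15, adjusted p = 0.0319). Ube2c, the ubiquitin-conjugating enzyme of the anaphase-promoting complex, was at 78.2, 77.7 and 64.2 CPM in WT+EV and 104, 104 and 123 CPM in KO+EV (0.59 ± 0.14, adjusted p = 0.04996). Of 29 tested DNA replication genes edgeR called none, an unadjusted p under 0.05 was reached by 2, and DESeq2 called 0 higher and 0 lower. Of 24 tested cyclins, CDKs and CDK inhibitors, 1 fell and none rose, 13 had a positive difference, and the median was 0.0965. The gene that fell was Ccnd3, the D-type cyclin of blood cells, at 345, 274 and 387 CPM in WT+EV and 186, 192 and 174 CPM in KO+EV (-0.87 ± 0.18, adjusted p = 0.0394). The 35 tested replication-dependent histone genes all had a negative difference, with a median of -1.05, and edgeR called none, while an unadjusted p under 0.05 was reached by 11, and DESeq2 called 0 higher and 1 lower. Their summed level was 273, 391 and 344 CPM in WT+EV and 118, 52.5 and 249 CPM in KO+EV, and 2 were called lower without KO+EV 3. Most histone transcripts lack a poly-A tail, the libraries were made from poly-A RNA, and the genes share near-identical copies, so these values are uncertain. Of 37 tested oxidative phosphorylation genes, 1 rose, Uqcrc1, a core subunit of complex III, at 182, 244 and 197 CPM in WT+EV and 313, 334 and 331 CPM in KO+EV (0.65 ± 0.15, adjusted p = 0.046), and the median was 0.0712. Of 24 tested genes of the glycolysis list, 1 rose, Hif1a, the oxygen-regulated factor, at 108, 162 and 153 CPM in WT+EV and 238, 249 and 225 CPM in KO+EV (0.75 ± 0.15, adjusted p = 0.0307). Of 20 tested heat shock chaperones, 1 fell, Dnajb1, a partner of HSP70, at 79.3, 89.2 and 95.8 CPM in WT+EV and 60.03, 52.2 and 67.96 CPM in KO+EV (-0.55 ± 0.12, adjusted p = 0.045). Ccnd3 and Uqcrc1 were not called without WT+EV 1 or 3 or KO+EV 1, 2 or 3 (adjusted p 0.0573 to 0.148), nor Plk1 and Hif1a without WT+EV 1 or 3 or KO+EV 1 or 2 (0.0543 to 0.109) or Ube2c without any 1 of the 6 libraries (0.0763 to 0.161). Dnajb1 was not called without WT+EV 1, 2 or 3 or KO+EV 1 or 2 (adjusted p 0.0549 to 0.167).

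Between 1 and 3 genes of each of the following lists were called, beside 0.903% of all genes called higher and 1.2% called lower. Of 15 tested eicosanoid enzymes, 2 fell. Ptgs2, the inducible cyclooxygenase, was at 2.86, 12.4 and 8.53 CPM in WT+EV and 1.32, 0.961 and 1.46 CPM in KO+EV (-2.67 ± 0.55, adjusted p = 0.0361). Ptges, the prostaglandin E synthase that acts after it, was at 15.2, 13.5 and 19.4 CPM in WT+EV and 9.61, 7.18 and 5.16 CPM in KO+EV (-1.13 ± 0.26, adjusted p = 0.047). Of 22 tested genes of p53 targets, 1 fell, Plk3, a stress-responsive polo-like kinase, at 26.5, 66.6 and 128 CPM in WT+EV and 15.2, 6.68 and 7.76 CPM in KO+EV (-2.90 ± 0.58, adjusted p = 0.036). Of 24 tested SOCS, PIM and STAT genes, 1 fell, Pim3, a serine kinase induced by cytokines, at 21.6, 25.2 and 25.4 CPM in WT+EV and 15.01, 11.7 and 11.5 CPM in KO+EV (-0.92 ± 0.19, adjusted p = 0.0394). Of 22 tested TGF-beta and BMP genes, 1 rose, Smad1, which carries BMP signals to the nucleus, at 0.525, 0.258 and 0.330 CPM in WT+EV and 1.53, 1.14 and 5.57 CPM in KO+EV (2.88 ± 0.62, adjusted p = 0.0421). Of 14 tested retinoid, lectin and C1q/TNF genes, 3 rose, Cyp4v3, C1qtnf6 and Clec3a. C1qtnf6, a secreted C1q-like protein, was at 0.641, 4.28 and 4.10 CPM in WT+EV and 31.6, 50.01 and 68.8 CPM in KO+EV (4.04 ± 0.88, adjusted p = 0.045). Clec3a, a C-type lectin, was at 0.117, 0.206 and 0.0471 CPM in WT+EV and 1.98, 1.65 and 116 CPM in KO+EV, so that nearly all of its group's counts came from KO+EV 3. Its difference was 8.29 ± 1.86 (adjusted p = 0.0486) with all libraries and 3.83 (adjusted p = 0.031) without KO+EV 3. DESeq2 gave Clec3a no adjusted p, and limma voom did not call it (4.04, adjusted p = 0.11). The difference moved for Plk3 to -2.24 without WT+EV 3 and Smad1 to 1.85 without KO+EV 3. Ptgs2 was not called without WT+EV 2 or 3 or KO+EV 1 or 2 (adjusted p 0.0734 to 0.138), nor Ptges, Pim3 and Smad1 without WT+EV 1, 2 or 3 or KO+EV 2 or 3 (0.0514 to 0.149) or Plk3 without WT+EV 2 or 3 or KO+EV 2 or 3 (0.0568 to 0.139). C1qtnf6 was not called without any 1 of the 6 libraries (adjusted p 0.0556 to 0.121), nor Clec3a without WT+EV 1, 2 or 3 or KO+EV 2 (0.0689 to 0.155).

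**Figure D5:**
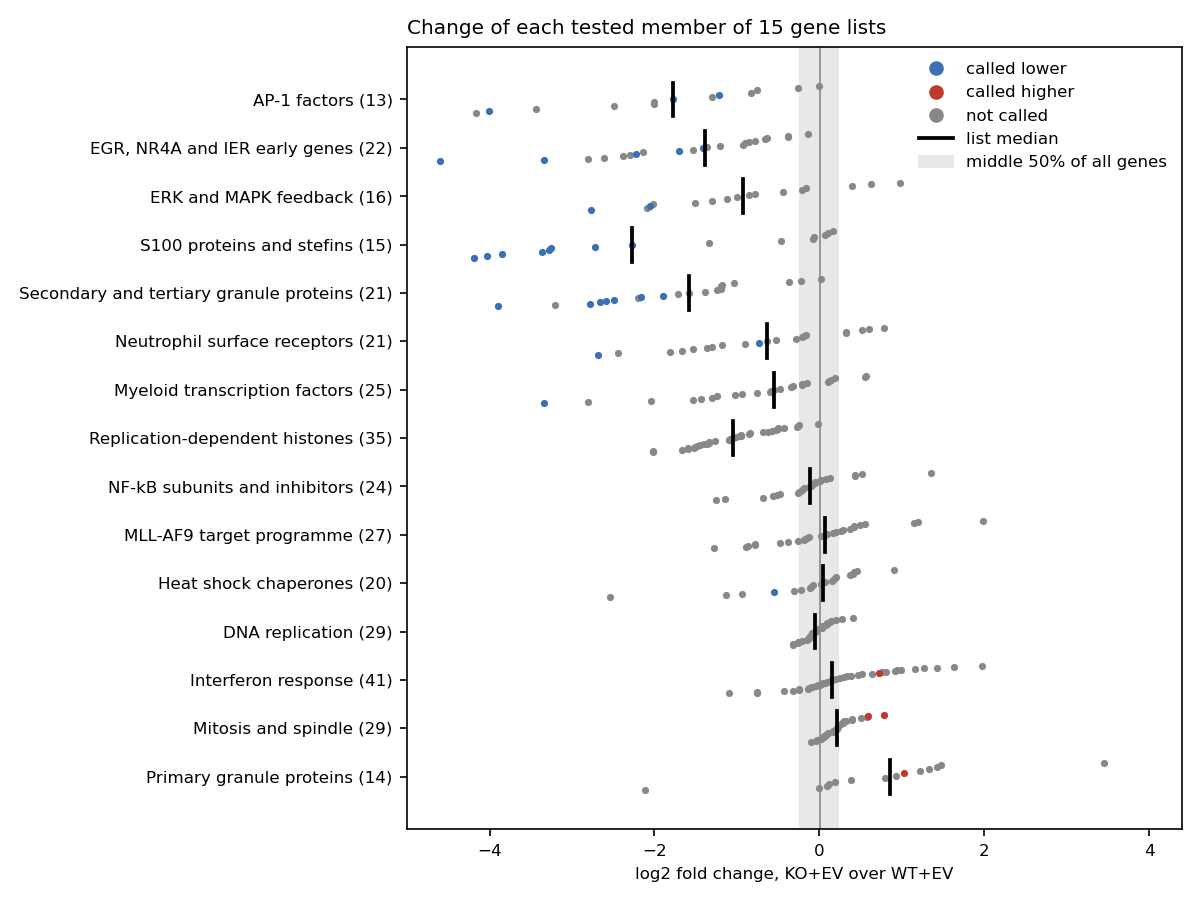
Log2 difference between KO+EV and WT+EV (x axis) of every tested member of 15 gene lists (rows), coloured where called, with a bar at the median of each list and a grey band over the middle 50% of all 12958 genes. The S100 and stefin, secondary and tertiary granule and early gene lists have medians left of the band, primary granule genes have a median to its right, and the median of the MLL-AF9 programme, 0.064, is inside it.

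The knockout cells with an isoform added are set beside these values as levels only, since a comparison of either with KO+EV would share the KO+EV libraries with the differences above. Prdm16 averaged 267 CPM with f and 248 CPM with s, far above the WT+EV level. Zc3h12c was at 67.6, 90.99 and 104 CPM with f and 33.01, 13.7 and 14.6 CPM with s, and Egr1 at 67.1, 26.1 and 59.97 CPM with f and 82.7, 71.4 and 119 CPM with s. Summed AP-1 genes ran from 744 to 2230 CPM with f and from 2090 to 3530 CPM with s, against 1380, 4150 and 3820 CPM in WT+EV and 630, 315 and 1230 CPM in KO+EV. Mpo was at 3691, 7131 and 3773 CPM with f and 5070, 9230 and 2055 CPM with s. S100a9 was at 259, 415 and 342 CPM with f and 3493, 2155 and 5571 CPM with s. Zfp783 was at 8.66, 2.16 and 12.3 CPM with f and 2.09, 1.06 and 3.43 CPM with s, between the WT+EV and KO+EV levels given above in each of these 6 libraries. Not every gene that fell was higher with an isoform added. Col5a1 averaged 1.31 CPM with f and 1.10 CPM with s, against 1.70 CPM in KO+EV and 20.3 CPM in WT+EV. Stfa1 averaged 50.4 CPM with f and 21.8 CPM with s, against 69.5 CPM in KO+EV and 1006 CPM in WT+EV.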

How the data were processed

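Gene-level RNA-seq counts deposited by the authors were used as they stood: whole-number counts for 23284 genes in 12 MLL-AF9 libraries. Per the submitters' processing notes the reads were handled with bcl2fastq 2.17, TopHat and DESeq on mm9. The counting tool, the annotation and the use of strand are not given in the sources used here. Genes with near-identical copies (stefins, histones, some S100 genes and clustered protocadherins) and genes with an antisense partner are therefore uncertain.

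The 12 libraries of 4 groups were fitted together in edgeR 4.0.16 (R 4.3.3) with TMM factors, the default low-count filter and the quasi-likelihood test, so that all groups shared 1 estimate of the spread, and KO+EV was compared with WT+EV. P-values were adjusted by Benjamini-Hochberg over all 12958 genes tested, with a threshold of 0.05. The common biological coefficient of variation was 0.253. Alternatives used DESeq2 1.42.0, limma 3.58.1 (voom with sample weights), other scaling factors, other filters, the 6 libraries alone, a replicate block and each library left out in turn. Tables and figures were made with Python 3.11.15.

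The groups and gene lists were chosen with earlier results of these data known. Named genes were Prdm16 and up to 14 genes per direction with the smallest p among those called with mean log2 CPM of at least 2. The latter were also required to have no overlap in CPM between the groups. Up to 4 called members of each list (or 2 uncalled ones), and members of the AP-1, EGR/NR4A/IER and granule families, were added. Xist, Tsix, Y-linked genes and genes with provisional names (such as Gm, Rik or LOC) were left out, except for members of the stefin cluster. S100a8, Stfa1, Dusp1, Cebpa, Hoxa9, Meis1, Flt3, Hoxa11, Pbx3 and Irf8 were chosen after their values were seen. Promoter windows came from RefSeq in GRCm38.p6 and were matched by symbol, and no coordinate was carried over to or from mm9.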

Additional observations from a re-analysis of the deposited data

How the results depend on the processing

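The number of genes called was 907 with DESeq2 (435 higher and 472 lower in KO+EV), 1244 with limma voom (577 higher and 667 lower) and 1 with the spread estimated from the 6 libraries alone (0 higher and 1 lower), against 272 (117 higher and 155 lower). Leaving out 1 library gave between 26 and 425 calls, 13 to 249 higher and 12 to 176 lower. Prdm16 stayed negative in these fits, from -4.46 to -3.15, and was past the threshold in 2 of the 6. With a replicate block, 195 genes were called, 70 higher and 125 lower, 166 of them shared with the 272. The labels give the groups the same replicate numbers. After group means were removed, the correlations of same-numbered libraries were 0.0263, 0.0431 and 0.0468. Of the 6 libraries, 4 had their highest correlation across groups with the library of their own number. These values are small and do not settle whether the replicates were paired. RLE factors gave 242 calls, upper-quartile factors 267, no low-count filter 209 and a stricter filter 217. Of the 76 named genes that were called, none changed sign under any alternative. This was largely fixed by their selection and is not support, because KO+EV and WT+EV did not overlap for any called gene. Calls remained for 75 of the 76 with DESeq2, which gave no adjusted p for Clec3a. They remained for 54 with the replicate block, and for 12 (without KO+EV 2) to 55 (without KO+EV 3) with 1 library left out. Hoxa9, not called, was at -0.237 without KO+EV 2 and changed sign, to 0.0581 with limma voom and 0.0595 without KO+EV 3. The cause of these shifts was not tested. Depth limits Prdm16, which had 0 to 17 counts in each of the 6 libraries.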
